A study of Mus musculus with 8 samples.

Results

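The expression of 10 genes of the endoplasmic reticulum (ER) folding machinery was examined in cultured keratinocytes, the cells that make up most of the epidermis. They are Hspa5, Dnajb9, Sdf2l1, Hsp90b1, Calr, Pdia4, Pdia6, Creld2, Herpud1 and Xbp1, taken by symbol as ER chaperones and targets of the transcription factors XBP1 or ATF6. All 10 have a row in the table of 19457 genes, and all 10 were among the 11870 genes tested. There were 4 HdR libraries, from mice whose HOIL1 protein lacks its first RING domain (HOIL1 ΔRING1), and 4 WT libraries, from wild-type mice. In both genotypes the cells were primary keratinocytes taken from skin, grown without any agent named in the labels and collected before the plates were confluent. HOIL1 is encoded by Rbck1 and belongs to LUBAC, the ligase that builds linear ubiquitin chains. The labels name no age and no animal or culture for a library, so p-values measure only the spread between these libraries, which may be technical.

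The ER folds secreted and membrane proteins with lumenal chaperones and with enzymes that form disulfide bonds. When unfolded proteins accumulate, 3 sensors respond: IRE1 splices the Xbp1 messenger into a form that encodes an active factor, ATF6 is released by cleavage, and PERK raises ATF4. XBP1 and ATF6 switch on chaperone, degradation and transport genes, while ATF4 switches on amino acid and stress genes. Keratinocytes secrete lipids and build adhesion proteins during differentiation, and XBP1 activity has been linked to that process.

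The deposited values, whose unit was read from the numbers themselves, are sums of aligned bases over each gene, scaled here to aligned bases per megabase of each library's normalised total (written per Mb). Library totals were 2.31 to 4.31 Gb in HdR and 4.78 to 5.43 Gb in WT, with every HdR library the shallower (two-sided exact permutation p = 0.0286, the lowest reachable with 70 regroupings). Depth and genotype cannot be told apart. Rbck1 averaged 43.7 ± 1.87 per Mb in HdR and 87.5 ± 3.4 per Mb in WT (SD, n = 4 each), which checks the labels but not the deletion, since coverage is summed over the whole gene. The 10 keratinocyte markers summed to 55843 to 57177 per Mb in HdR and 54340 to 57417 per Mb in WT, with Krt5 and Krt14 the most abundant. In bulk RNA of this kind, fewer cells of a type and less RNA per cell cannot be told apart.

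The 10 genes did not move in one direction. The lumenal chaperones Hsp90b1 and Calr and the folding factors Pdia4, Pdia6 and Creld2 rose in HdR, by 0.14 to 0.28 on the log2 scale. The transcription factor gene Xbp1, the co-chaperone gene Dnajb9 and the degradation gene Herpud1 fell, by 0.28 to 0.82. Hspa5, which encodes the central chaperone BiP, and Sdf2l1 did not pass the test. By limma's test at an adjusted p under 0.05 (Benjamini-Hochberg over all genes), 5 of the 10 were higher and 3 lower, where 21.2% of all genes tested were higher (2517 genes) and 23.8% lower (2829 genes). Of all calls 47.1% were higher, and 57.7% with upper-quartile scaling, which moved the median of all genes to 0.03. The median log2 fold change of the 10 was 0.13, against -0.01 over all genes tested, and their median absolute value was 0.25, against 0.15. Only Herpud1 was called by limma's treat test against a fold of 1.2 (adjusted p = 7.95e-06), which called 7.47% of all genes.

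**Figure D1:**
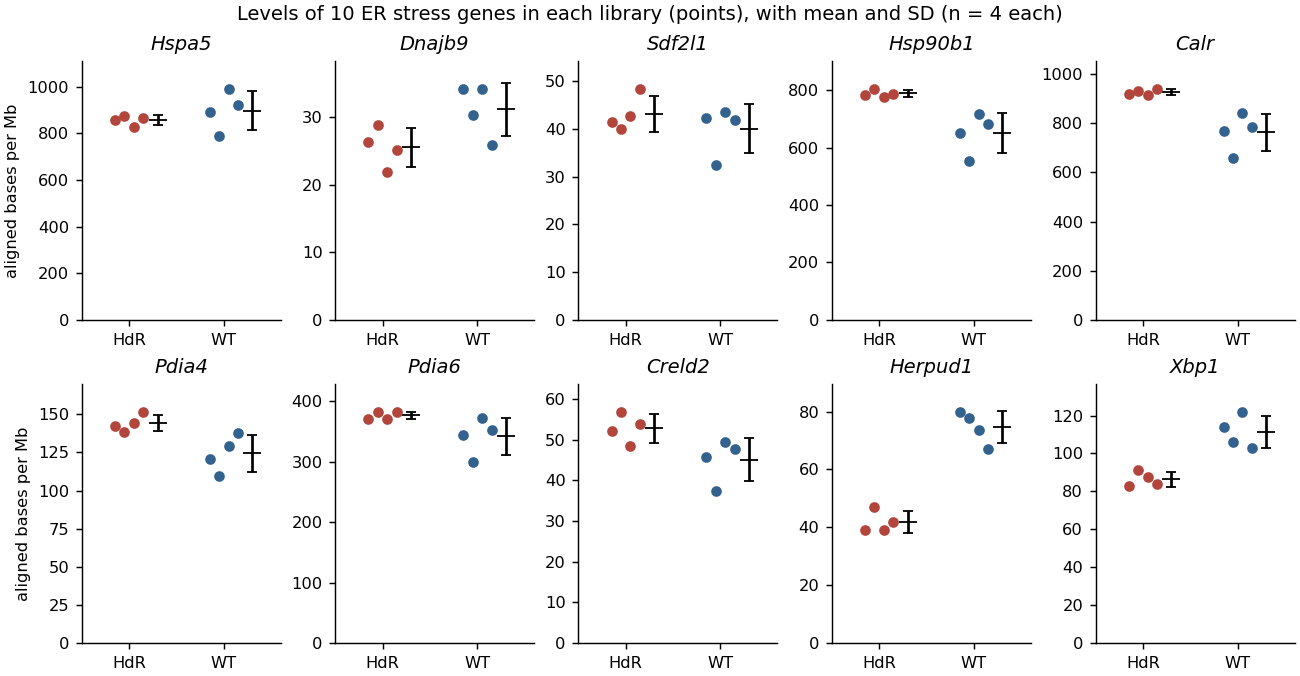
Level of each of the 10 genes (y axis, aligned bases per Mb, starting at 0) in the HdR and WT libraries (1 point each), with the mean and SD of 4 libraries beside them. HdR points lie above every WT point for Hsp90b1, Calr and Pdia4 and below every WT point for Herpud1 and Xbp1, and the WT points of the chaperone genes are the more spread.

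Xbp1 (GRCm38 chromosome 11, 5520659 to 5525893, plus strand) encodes the factor whose messenger IRE1 splices. Its levels were 83.1, 91.4, 87.4 and 83.7 per Mb in HdR libraries 1 to 4, against 114, 106, 122 and 103 per Mb in WT libraries 1 to 4. HdR lay below WT throughout, as for 21.3% of all genes (41.1% did not overlap in either direction), and WT 4 was the lowest WT library. The log2 fold change was -0.36 ± 0.051 (SE, adjusted p = 2.67e-05 by limma), and the call held in each fit that left out 1 library. A sum over the gene does not separate spliced from unspliced Xbp1 messenger, so IRE1 activity is not read from this value.

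Hspa5 (chromosome 2, 34771970 to 34777547, plus strand) encodes BiP, the HSP70-type chaperone that also holds the 3 sensors inactive. It had 859, 875, 825 and 864 per Mb in HdR, against 891, 787, 991 and 920 per Mb in WT. The HdR values lay inside the WT range. The log2 fold change was -0.06 (95% interval -0.18 to 0.06, limma adjusted p = 0.383). WT 2 was the lowest WT library, and without it Hspa5 was called lower, at -0.12 (adjusted p = 0.0114), while without WT 3 it was at -0.02 (adjusted p = 0.802). With upper-quartile scaling and with library totals it was at -0.02 and -0.04, and not called.

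Dnajb9 (chromosome 12, 44205559 to 44210326, minus strand) encodes ERdj4, a co-chaperone of BiP and a well-known XBP1 target. It had 26.3, 28.8, 21.9 and 25.2 per Mb in HdR, against 34.2, 30.4, 34.2 and 25.9 per Mb in WT. WT 4 lay among the HdR libraries, and the other WT libraries lay above them. The log2 fold change was -0.28 ± 0.095 (SE, adjusted p = 0.0316 by limma). The call was lost without HdR 1, HdR 3, HdR 4, WT 1, WT 2 or WT 3, the adjusted p reaching 0.0879. It was also lost with upper-quartile scaling (0.0549) and with no filter (0.0699). Sdf2l1 (chromosome 16, 17130138 to 17132383, minus strand), which encodes another partner in BiP complexes, had 41.4, 39.9, 42.6 and 48.4 per Mb in HdR, against 42.3, 32.4, 43.6 and 41.9 per Mb in WT. Those groups overlapped, and the log2 fold change of 0.11 was not called (95% interval -0.09 to 0.31, adjusted p = 0.351). It was 0.01 without WT 2 and 0.05 without HdR 4.

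Hsp90b1 (chromosome 10, 86690209 to 86705509, minus strand) encodes GRP94, the HSP90-type chaperone of the ER, which integrins need for folding. It had 784, 805, 777 and 787 per Mb in HdR, against 652, 553, 719 and 681 per Mb in WT. Each HdR library was above each WT library, as for 19.8% of all genes, and the log2 fold change was 0.28 ± 0.068 (SE, adjusted p = 0.00672 by limma). Calr (chromosome 8, 84841850 to 84846934, minus strand) encodes calreticulin, a calcium-binding chaperone that recognises sugar chains. It had 918, 930, 913 and 940 per Mb in HdR, against 767, 660, 842 and 786 per Mb in WT. HdR was again above WT throughout, with a log2 fold change of 0.28 ± 0.059 (SE, adjusted p = 0.00206). Both calls held in each fit that left out 1 library, with log2 fold changes of 0.21 to 0.33 for Hsp90b1 and 0.21 to 0.33 for Calr.

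Pdia4 and Pdia6 encode protein disulfide isomerases, which form and rearrange disulfide bonds. Pdia4 (chromosome 6, 47796141 to 47813430, minus strand) had 142, 139, 144 and 152 per Mb in HdR, against 121, 110, 129 and 138 per Mb in WT. The highest WT library stood just under the lowest HdR library, and the log2 fold change was 0.22 ± 0.058 (SE, adjusted p = 0.00755 by limma). Pdia6 (chromosome 12, 17266545 to 17284770, plus strand) had 371, 382, 371 and 382 per Mb in HdR, against 345, 300, 373 and 352 per Mb in WT. The groups overlapped through WT 3. The log2 fold change of 0.14 ± 0.052 (SE, adjusted p = 0.0395) was the smallest of those called. It stayed past the threshold without WT 3 or WT 4 and was lost without any of the other 6 libraries (adjusted p up to 0.091) and with no filter on low genes (0.0931). Without WT 2 the log2 fold change was 0.08. Pdia6 overlaps Atp6v1c2 on the opposite strand, which averaged 8.7 per Mb in HdR and 8.42 per Mb in WT.

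Creld2 (chromosome 15, 88819646 to 88826683, plus strand) encodes an ER-stress-induced protein with disulfide isomerase activity. It had 52.1, 56.8, 48.4 and 53.9 per Mb in HdR, against 45.8, 37.4, 49.4 and 47.7 per Mb in WT. The groups overlapped through HdR 3 and WT 3, and WT 2 was the lowest library. The log2 fold change was 0.23 ± 0.078 (SE, adjusted p = 0.0287 by limma), and the call was lost without HdR 1, HdR 2, HdR 4, WT 1 or WT 2 (adjusted p 0.0508 to 0.0801) and with no filter (0.0674). Without WT 2 the log2 fold change was 0.14. Thus 3 of the 5 higher calls, those of Calr, Hsp90b1 and Pdia4, remained in each fit that left out 1 library.

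Herpud1 (chromosome 8, 94386438 to 94395377, plus strand) encodes HERP, a membrane scaffold that gathers the ubiquitin ligase complex of ER-associated degradation. It had 38.9, 47.0, 39.1 and 41.9 per Mb in HdR, against 79.9, 77.6, 73.6 and 67.2 per Mb in WT. The highest HdR library lay well under the lowest WT library. Its log2 fold change, -0.82 ± 0.064 (SE, adjusted p = 5.7e-08 by limma), was the largest of the 10 in size, and it ranged from -0.88 to -0.79 as each library was left out. An annotated antisense gene, Gm15890, overlaps Herpud1, and the strand setting of the counting is not given in the sources used here.

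**Figure D2:**
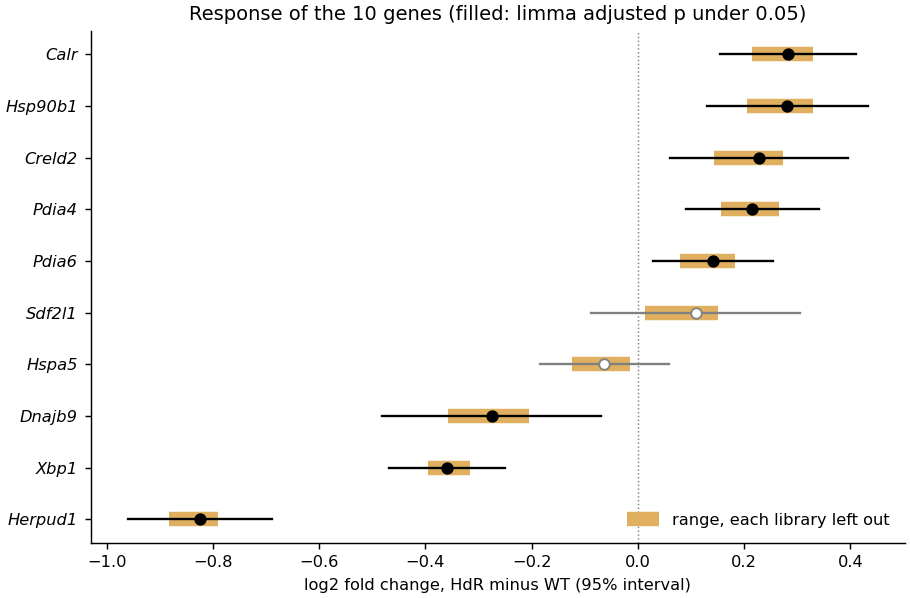
Log2 fold change, HdR minus WT, of the 10 genes with its 95% interval (x axis), with filled points for an adjusted p under 0.05 by limma and a band for the range as each library was left out. Herpud1 stands apart at -0.82, and Calr and Hsp90b1 share 0.28.

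The 10 genes also differed in spread. The coefficient of variation over 4 libraries was 1.31% to 11.3% in HdR and 7.49% to 12.8% in WT, and it was the smaller in HdR for each gene except Herpud1. WT 2 was the lowest WT library for the 7 genes Hspa5, Sdf2l1, Hsp90b1, Calr, Pdia4, Pdia6 and Creld2. WT 4 was the lowest for Xbp1, Dnajb9 and Herpud1. Per kilobase of annotated exon, Calr was the most abundant messenger, at 321 ± 4.2 aligned bases per Mb in HdR and 265 ± 26 in WT (SD, n = 4 each). Hspa5 followed, at 202 ± 5.1 in HdR and 212 ± 20 in WT, then Hsp90b1 at 196 ± 2.9 in HdR and 162 ± 18 in WT. Pdia6 had 101 ± 1.7 in HdR and 91.4 ± 8.2 in WT, and Pdia4 60.1 ± 2.3 in HdR and 51.9 ± 5.0 in WT on that scale. At the low end in WT, Sdf2l1 (36.1 ± 4.6), Xbp1 (34.3 ± 2.6), Creld2 (33.0 ± 3.9) and Herpud1 (32.0 ± 2.4) lay within each other's spread. In HdR, Sdf2l1 (38.9 ± 3.3) and Creld2 (38.6 ± 2.6) stayed within each other's spread, while Xbp1 (26.6 ± 1.2) and Herpud1 (17.9 ± 1.6) stood below them. Dnajb9 was the least abundant per kilobase, at 10.03 ± 1.13 in HdR and 12.2 ± 1.55 in WT.

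Ratios of 2 genes within a library remove any scaling common to both. Calr over Hspa5 was 1.07, 1.06, 1.11 and 1.09 in HdR libraries 1 to 4, against 0.861, 0.839, 0.85 and 0.854 in WT. Hsp90b1 over Hspa5 was 0.913, 0.919, 0.942 and 0.911 in HdR, against 0.732, 0.703, 0.725 and 0.741 in WT. Thus Calr and Hsp90b1 rose relative to Hspa5 in each HdR library although Hspa5 itself was not called. Hspa5 over Herpud1 was 22.1, 18.6, 21.1 and 20.6 in HdR, against 11.1, 10.1, 13.5 and 13.7 in WT. Calr over Hsp90b1, in contrast, was 1.17, 1.16, 1.18 and 1.19 in HdR and 1.18, 1.19, 1.17 and 1.15 in WT, a log2 difference of 0.001 between genotypes (exact permutation test, two-sided p = 0.857).

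Of the 45 pairs of genes, 26 differed in response at an adjusted p of 0.0495 (exact permutation tests of the within-library log2 ratio, two-sided, Benjamini-Hochberg over the 45). These 26 had the smallest p that 70 regroupings allow, and with 25 such pairs the adjusted p would have been 0.0514, so they stand or fall together. Genes called in opposite directions differ by the calls themselves, so such pairs add nothing to them. Each of the 9 other genes differed from Herpud1, Xbp1 by 0.46 and Dnajb9 by 0.55. Hspa5 differed from each of the 5 genes that rose, by 0.20 for Pdia6 up to 0.35 for Calr. Of the 10 pairs among the genes that rose, 2 differed, those of Pdia6 with Calr (0.14) and with Hsp90b1 (0.14).

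**Figure D3:**
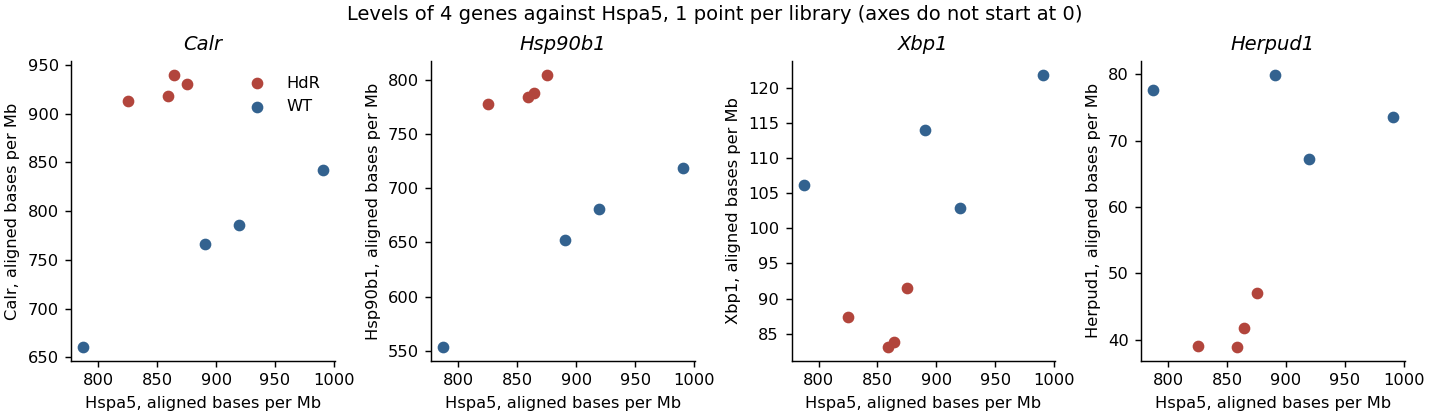
Levels of Calr, Hsp90b1, Xbp1 and Herpud1 (y axes) against Hspa5 (x axes), both in aligned bases per Mb on axes that do not start at 0, with 1 point for each HdR and WT library. At like Hspa5 levels the HdR points lie above the WT points for Calr and Hsp90b1 and below them for Xbp1 and Herpud1.

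With the genotype means removed, the log2 levels of several of these genes moved with Hspa5 over the 8 libraries, which share their scaling factor across genes. The WT libraries carried most of this movement. The SD was 84.3 per Mb in WT and 21.6 per Mb in HdR for Hspa5, 75.9 and 12.1 for Calr, and 70.7 and 11.6 for Hsp90b1. WT 2 was the lowest WT library for these genes. Pearson's r with Hspa5 was 0.978 for Pdia6, 0.978 for Calr and 0.977 for Hsp90b1, ranks 9, 10 and 13 of 11869 genes, and 0.941 for Creld2, rank 90. It was lower for Sdf2l1 (0.758), Pdia4 (0.721), Xbp1 (0.513) and Dnajb9 (0.305), and -0.142 for Herpud1. Outside the 10, the 5 genes nearest to Hspa5 were Gna15 (r = 0.989), Nhp2 (0.989), P4hb (0.987), Ldha (0.987) and Atp5g3 (0.986), of which P4hb encodes a further disulfide isomerase of the ER.

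The promoters of the 10 genes were read from RefSeq (GRCm38.p6), from 250 bases before to 50 after each start site, to show the elements that the chaperone genes share. The ER stress element ERSE (CCAAT, then 9 bases of any kind, then CCACG, on either strand) joins a site for NF-Y to a site for ATF6 or XBP1. It occurred in 5 of the 10 windows and in 0.119% of 32851 windows of that length. As the genes were chosen as XBP1 or ATF6 targets, this share is a property of the choice. The matches are given in the direction of the element, with positions counted from the start site and with its fixed bases in capitals.
Hspa5, -65 to -47: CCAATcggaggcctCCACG
Calr, -162 to -144: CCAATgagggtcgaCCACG
Hsp90b1, -212 to -194: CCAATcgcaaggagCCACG
Hsp90b1, -107 to -89: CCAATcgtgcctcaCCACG
Pdia6, -98 to -80: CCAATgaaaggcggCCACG
Creld2, -126 to -108: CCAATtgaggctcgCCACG
Herpud1, ERSE-II, -52 to -42: ATTGGgCCACG

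Of the 5 genes with an ERSE match, Calr, Hsp90b1, Creld2 and Pdia6 rose and Hspa5 was not called. Pdia4, which also rose, had no match to the full element. Its window began at 47813463, outside its annotated gene, which ends at 47813430. The bases after its start site were in no annotated transcript, while those of the other 9 genes were. The lack of a match for Pdia4 is therefore uncertain. Only exact ERSE matches were searched, and the windows of Pdia4 and Herpud1 each hold a stretch that differs from ERSE in its last base alone. The windows of the 3 genes that fell had no exact ERSE match. Herpud1 had instead the related ERSE-II (ATTGG, then 1 base of any kind, then CCACG, on either strand, in 0.0365% of windows) and a composite C/EBP-ATF site (TTGCATCA, either strand, in 0.895% of windows), a kind of site that ATF4 is known to bind. Neither occurred in the other 9 windows. The UPRE core (TGACGTGG, either strand, in 0.676% of windows) matched none of the 10. Only this spelling was searched. The Hspa5 window holds tgacgtga, which differs in its last base, and the Pdia6 window holds ggacgtgg, which differs in its first base. The NF-Y box (CCAAT, either strand, in 37.4% of windows, and contained in ERSE and ERSE-II) matched each of the 10 except Xbp1. A match to letters is a description and not a bound site.

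The 250 bases before the start are given for Herpud1, the gene that fell most, and for Hsp90b1, which rose and has 2 ERSE matches, with the matches to ERSE, ERSE-II and C/EBP-ATF in capitals. Herpud1 lies at chr8:94386179-94386428 on the plus strand and Hsp90b1 at chr10:86705445-86705694 on the minus strand, both read 5′ to 3′ along the gene.
Herpud1: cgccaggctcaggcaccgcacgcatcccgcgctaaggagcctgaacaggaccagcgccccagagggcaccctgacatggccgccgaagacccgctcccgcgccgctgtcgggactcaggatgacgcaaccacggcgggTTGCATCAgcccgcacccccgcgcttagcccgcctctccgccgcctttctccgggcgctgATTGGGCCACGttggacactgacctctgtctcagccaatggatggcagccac
Hsp90b1: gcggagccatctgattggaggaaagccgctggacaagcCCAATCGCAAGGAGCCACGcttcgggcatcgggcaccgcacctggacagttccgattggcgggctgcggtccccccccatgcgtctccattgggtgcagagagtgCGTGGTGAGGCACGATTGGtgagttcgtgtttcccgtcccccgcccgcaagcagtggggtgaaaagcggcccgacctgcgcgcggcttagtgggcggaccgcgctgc

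**Figure D4:**
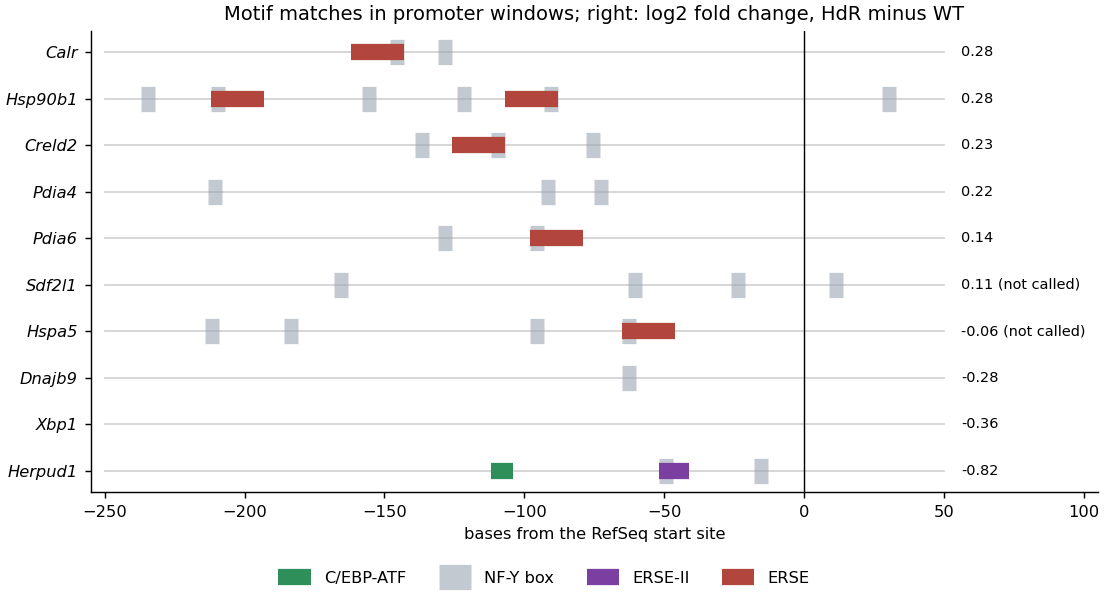
Positions of matches to ERSE, ERSE-II, the C/EBP-ATF site and the NF-Y box (coloured blocks) in the promoter windows of the 10 genes (x axis, bases from the RefSeq start site), ordered by log2 fold change, HdR minus WT, printed at the right. ERSE matches lie in the windows of Calr, Hsp90b1, Creld2, Pdia6 and Hspa5, and the C/EBP-ATF match lies in that of Herpud1. The window of Pdia4 lies outside its annotated gene.

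Other ER folding genes went both ways, with more higher than lower. Of 39 tested, 15 were higher (38.5%, against 21.2% of all genes) and 9 lower (23.1%, against 23.8% of all genes) in HdR, with a median log2 fold change of 0.09 against -0.01 over all genes. Canx, which encodes calnexin, the membrane-bound relative of calreticulin, averaged 534 ± 5.98 per Mb in HdR and 418 ± 31.9 per Mb in WT (SD, n = 4 each), which gave 0.35 ± 0.045 on the log2 scale (SE, adjusted p = 8.96e-06 by limma). Dnajc10, which encodes a disulfide reductase that works with BiP, was at 0.34 ± 0.048, and the prolyl isomerase gene Fkbp10 at 0.77 ± 0.068. Txndc12, which encodes a small thioredoxin-like ER protein, fell by 0.57 ± 0.056.

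Among genes of ER-associated degradation, to which Herpud1 belongs, more were lower than higher. Of 25 tested, 8 were lower (32.0%, against 23.8% of all genes) and 1 higher (4.0%, against 21.2%), with a median of -0.06, the higher one being Nploc4 at 0.12 ± 0.037, named after its value was seen. Sel1l, which encodes the adaptor of the ligase complex that HERP joins, averaged 97.8 ± 4.77 per Mb in HdR and 137 ± 8.98 per Mb in WT (SD, n = 4 each), which gave -0.49 ± 0.049 on the log2 scale (SE, adjusted p = 5.64e-07 by limma). Herpud2, a relative of Herpud1, fell by 0.51 ± 0.074, and the lectin genes Erlec1 and Os9, which recognise sugar chains of misfolded proteins, by 0.47 ± 0.085 and 0.19 ± 0.040. The balance depends on scaling and on single libraries: the counts were 5 higher and 6 lower with upper-quartile scaling, the number higher was 4 by totals alone and 3 by median-of-ratios scaling, and it was 0 without HdR 2, 2 without HdR 3 and 4 without WT 3.

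Among translocation, glycosylation and ER-to-Golgi transport genes, more were higher than lower. Of 41 tested, 16 were higher (39.0%, against 21.2% of all genes) and 2 lower (4.88%, against 23.8%), with a median of 0.09, those lower being Sec11c at -0.23 ± 0.072 and Sar1b at -0.13 ± 0.049, named after their values were seen. Sec61a1, which encodes the pore of the translocation channel, averaged 230 ± 2.71 per Mb in HdR and 185 ± 10.4 per Mb in WT (SD, n = 4 each), which gave 0.31 ± 0.040 on the log2 scale (SE, adjusted p = 1e-05 by limma). Ssr1 and Ssr3, which encode subunits of the translocon-associated complex, were at 0.26 ± 0.043 and 0.25 ± 0.040, and the COPII coat gene Sec31a at 0.26 ± 0.039. The number lower was 0 without HdR 4 or without a filter, 1 without HdR 1, HdR 3, WT 1 or WT 3, and 1 under each of the other scalings (median-of-ratios, upper-quartile and totals). Of the 41, 16 had each HdR value above each WT value (39.0%, against 19.8% of all genes).

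Among sensors and factors, 2 of 13 were higher (15.4%, against 21.2% of all genes) and 3 lower (23.1%, against 23.8%), shares near those of all genes. Atf6, which encodes the sensor and factor named above, had 33.6, 35.6, 36.9 and 34.4 per Mb in HdR, against 61.3, 68.0, 51.4 and 57.2 per Mb in WT. The groups did not overlap, and the log2 fold change was -0.74 ± 0.069 (SE, adjusted p = 4.87e-07 by limma). Creb3l1, which encodes a relative of ATF6 also released from the ER by cleavage, was at -1.15 ± 0.092, while its relative Creb3l2 was at 0.58 ± 0.086 and Rtcb, which encodes the ligase that joins spliced Xbp1, at 0.18 ± 0.038. The third lower gene, Nfya, which encodes an NF-Y subunit and was named after its value was seen, was at -0.22 ± 0.060. The genes of the other 2 sensors, named after their values were seen, were not called: Ern1 (IRE1) was at -0.23 ± 0.16 (adjusted p = 0.289) and Eif2ak3 (PERK) at 0.10 ± 0.060 (adjusted p = 0.197).

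Most genes of the ATF4 and CHOP branch fell. Of 17 tested, 15 were lower and 0 higher, with a median of -0.88, against 23.8% of all genes lower. Eif2ak4, named after its value was seen, was the 1 gene higher at an unadjusted p under 0.05 (limma adjusted p = 0.0783). The number called higher was 1 without WT 4, with upper-quartile scaling and under scaling by totals alone. Atf5, which encodes an ATF4 relative and target, averaged 143 ± 5.12 per Mb in HdR and 319 ± 16.1 per Mb in WT (SD, n = 4 each), which gave -1.16 ± 0.041 on the log2 scale (SE, adjusted p = 1.8e-12 by limma). Asns and Ddit4 were at -0.88 ± 0.032 and -1.15 ± 0.048, and Stc2 averaged 6.75 ± 0.819 per Mb in HdR and 30.1 ± 4.10 per Mb in WT.

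**Figure D5:**
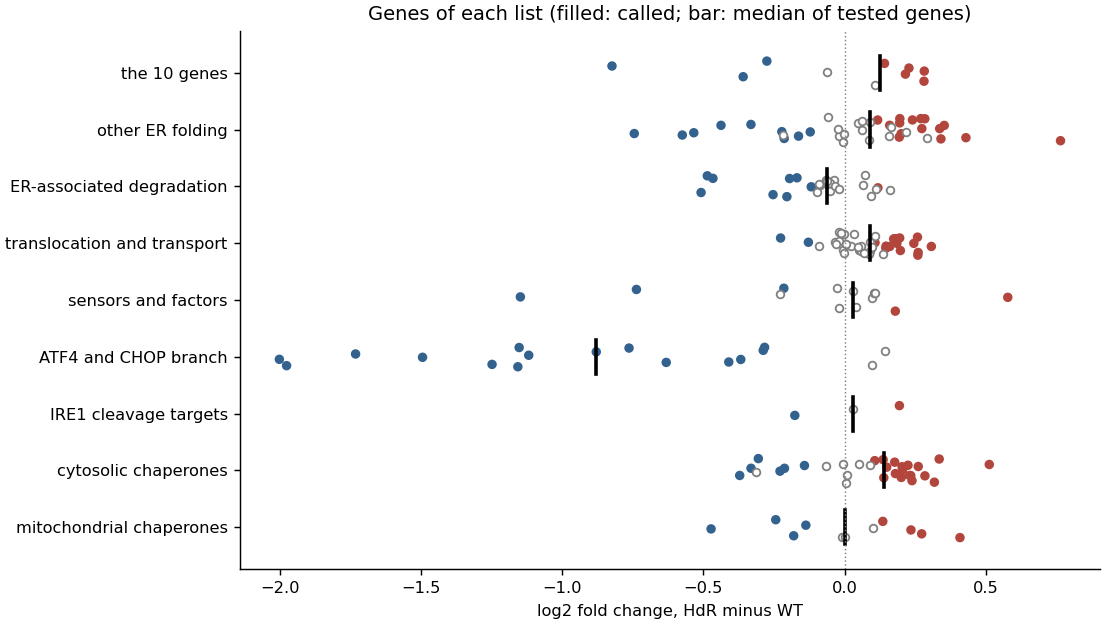
Log2 fold change, HdR minus WT (x axis), of each tested gene of the 10 and of 8 related lists (1 point per gene, filled where called by limma, with red for higher and blue for lower and a bar at the median of the tested genes). The ATF4 and CHOP branch lies to the left with a median of -0.88, while the folding and transport lists have medians of 0.09.

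Several markers of cell state and of other cells also differed between genotypes. The summed level of 11 suprabasal keratinocyte genes was 2254 to 2601 per Mb in HdR and 3107 to 4120 per Mb in WT, with 10 of 11 called lower (90.9%, against 23.8% of all genes). The summed level of 10 melanocyte genes was 27.4 to 29.6 per Mb in HdR and 52.4 to 60.8 per Mb in WT, with 6 of 7 tested called lower (85.7%, against 23.8% of all genes). Of the 10 keratinocyte markers, 4 were called higher (Krt5, Itga6, Itgb4 and Col17a1) and 2 lower (Perp and Sfn). The integrin genes Itgb4 and Itga6 were at 0.43 ± 0.041 and 0.28 ± 0.050, each above WT throughout, and Perp, which encodes a desmosomal protein, at -0.34 ± 0.040 and below WT throughout. Krt5 was at 0.10 ± 0.036 (limma adjusted p = 0.0247). Fibroblast genes summed to 2.47 to 6.13 per Mb in HdR and 2.3 to 4.39 per Mb in WT. The highest sum was in HdR 2, where Col1a1 was at 1.42 per Mb, against 0 to 0.232 in the other HdR libraries. Only Thy1 of that list was tested, and it was called lower with overlapping groups, at -0.39 ± 0.13 (SE, limma adjusted p = 0.0239). The 4 endothelial genes summed to 1.54 to 2.14 per Mb in HdR and 0.663 to 1.17 per Mb in WT. Of the leukocyte list, Mzb1, a gene of antibody-secreting cells, and Cd207 were at 0 in all 8 libraries, and Ptprc was at 0 in HdR and reached 0.06 per Mb in WT. The list summed to 1671 to 1729 per Mb in HdR and 1743 to 1826 per Mb in WT, nearly all of it Sdc1, which keratinocytes also express. Cd68, a lysosomal gene abundant in macrophages, averaged 39.5 ± 0.569 per Mb in HdR and 56.4 ± 5.84 per Mb in WT (SD, n = 4 each), did not overlap and was called lower, at -0.50 ± 0.063 on the log2 scale (SE, adjusted p = 8.12e-06 by limma). Sebocyte genes summed to 1145 to 1228 per Mb in HdR and 830 to 925 per Mb in WT, carried mainly by the lipid genes Fasn, Scd1 and Plin2, which keratinocytes also express. The part of these marker shifts in the levels of the 10 genes was not tested.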

How the data were processed

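Total RNA of cultured keratinocytes was sequenced in 8 libraries, 4 HdR and 4 WT, per the labels. The authors deposited signal: whole-number coverage sums per gene, unscaled. The unit was read from the values, in which 302 (2 reads of 151 bases) was the commonest value above 0 and 16.9% of low values were whole multiples of it, so they are not counts and give no counting interval. GRCm38 was the build, per the submitters' processing notes. The aligner, counter and strand setting are not given in the sources used here. Libraries were scaled by trimmed means (TMM, 30% of log ratios and 5% of levels trimmed). Genes with a mean of at least 1 aligned base per Mb were fitted as log2(level + 1) in limma 3.58.1 (R 4.3.3, mean trend, robust variance, statmod 1.5.0), so fold changes of low genes are understated. On data simulated for HdR against WT over 11859 genes, the fit recovered 87% of 100 genes changed 1.5-fold and 95.9% of 98 changed 2-fold, with 8.12% of its 197 calls over both false. The simulated spread between libraries was set and not fitted to these data, and far fewer genes were changed than were called here. Folds under 1.5 were not simulated, and of the 10 only Herpud1 changed by more than 1.5-fold. These rates therefore do not give the power or error of the reported calls. Exact permutation tests used scipy 1.17.1. Exon lengths and gene positions came from GENCODE vM21 (GRCm38). Genes named are the 10, the LUBAC gene Rbck1, the 5 nearest to Hspa5, up to 4 of smallest p per list and the markers, and a few others marked in the text as named after their values were seen. The genes and lists were chosen with earlier results of these data known.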

Additional observations from a re-analysis of the deposited data

Results flagged for a closer look

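Single libraries stood apart from the other 3 of their genotype, by Dixon's ratio of gap to range, in 6 of the 90 groups of 4 checked, where chance gives about 1 in 20. Among the 10 genes, Sdf2l1 was low in WT 2, at 32.4 per Mb against 41.9 to 43.6 per Mb in the other WT libraries. Among related genes, Ssr3 was at 262 per Mb in WT 2, against 292 to 294 per Mb in the other WT libraries, and Ssr1 at 156 per Mb in WT 2, against 174 to 178 per Mb. Os9 was at 128 per Mb in WT 3, against 117 to 118 per Mb, and Ddit4 at 137 per Mb in WT 1, against 128 to 129 per Mb. In HdR, Sec31a was at 162 per Mb in HdR 1, against 169 to 171 per Mb in the other HdR libraries.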

How the results depend on the processing

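Over the 10 genes and Rbck1, no setting reversed a direction. With upper-quartile scaling, 57.7% of all calls were higher, against 47.1% with TMM. The 5 higher calls among the 10 became 3 with no filter, 3 under a replicate block (Pdia6 at adjusted p = 0.0519 and Creld2 at 0.0662 by limma) and 3 without HdR 4 and WT 4 together, and ranged from 3 to 5 as each library was left out. In those fits 2 to 3 of the 10 were called lower. Herpud1 and Xbp1 were among them each time, and without WT 2 the count of 3 included Hspa5 in place of Dnajb9. Against a fold of 1.2, 0 of the 10 were higher and 1 lower, 343 and 544 over all genes, and 4 and 19 over the related lists (57 and 48 against no change). The drop follows from the stricter null. The causes of the other changes were not tested. No pairing by replicate number was seen: same-numbered deviations correlated at -0.222 to 0.0277, and 2 of 8 libraries correlated best with their own number. The labels do not say whether same-numbered samples share a culture, and these correlations cannot decide it. The tests of pairs were unchanged, at 26 calls, with pseudocounts of 0.1 and 5. With 3 against 4 libraries they cannot reach the threshold and were not run. Among the 10, the standard error was largest for Dnajb9 (0.095) and Sdf2l1 (0.090), which are among the lowest in level.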

Other observations

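Chaperones outside the ER also went both ways. Of 31 cytosolic chaperone genes, 18 were higher (58.1%, against 21.2% of all genes) and 6 lower (19.4%, against 23.8% of all genes) in HdR, with a median log2 fold change of 0.14. Hsp90aa1, the cytosolic relative of Hsp90b1, rose by 0.51 ± 0.048 and the chaperonin gene Cct8 by 0.26 ± 0.033 (log2, SE), with limma adjusted p of 6.24e-07 and 6.42e-06. The J-domain genes Dnajb1 and Dnajb4 fell by 0.31 ± 0.037 and 0.37 ± 0.046. Of 11 mitochondrial chaperone and protease genes, 4 were higher (Hspd1, Hspe1, Htra2 and Grpel1) and 4 lower (Lonp1, Hspa9, Clpx and Dnaja3), of which Htra2, Grpel1, Clpx and Dnaja3 were named after their values were seen. Each direction held 36.4% of the 11, against 21.2% of all genes higher and 23.8% lower. Hspd1 and Hspe1, which encode the mitochondrial chaperonin and its lid, were at 0.41 ± 0.036 and 0.27 ± 0.043, while Hspa9, the mitochondrial relative of Hspa5, was at -0.24 ± 0.035 and the protease gene Lonp1 at -0.47 ± 0.039.

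Of 6 mouse messengers known as IRE1 cleavage targets, 3 reached the tested range. Sparc averaged 75.8 ± 1.83 per Mb in HdR and 66.1 ± 1.14 per Mb in WT (SD, n = 4 each). Hgsnat averaged 37.1 ± 0.994 per Mb in HdR and 42.0 ± 2.21 per Mb in WT, and Bloc1s1 17.8 ± 1.21 per Mb in HdR and 17.4 ± 1.65 per Mb in WT. Sparc was called higher (limma adjusted p = 0.000823), Hgsnat lower (0.0103), and Bloc1s1 was not called (0.773).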
